A study of Mus musculus with 18 samples.

Results

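The genes described here code for receptors of cytokines other than IL-2. They are 10 of the 55487 gene IDs measured and were picked as a list of names, drawn up with earlier results of these data known: Il7r, Il4ra, Il21r, Il15ra and Il9r, whose products work with the common γ chain, Il6ra, Il6st and Il27ra of the IL-6 family, Il10ra, and Ifngr1. Messenger RNA was sequenced from regulatory T (Treg) cells, the CD4+ T cells that carry the transcription factor Foxp3 and restrain immune responses. The cells came from wild-type mice that received no treatment, out of 6 organs: peripheral blood, bone marrow, spleen, lymph node, lung and liver. Each organ has 3 libraries, 18 in all. The labels do not give the age or sex of the mice, the sorting gates, the number of animals pooled, or if the 3 libraries of an organ stem from different animals, so p-values measure the spread between these libraries, which may be technical. The series sets Treg cells of the blood against those residing in the other organs.

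The cytokine receptors described here are assembled from chains that carry no kinase of their own. Binding of the cytokine brings the chains together, JAK kinases bound to their tails become active, and STAT transcription factors are phosphorylated and move to the nucleus. Chains are shared: the γ chain (Il2rg) serves IL-4, IL-7, IL-9, IL-15 and IL-21, the chain gp130 (Il6st) serves IL-6 and IL-27, and SOCS proteins made in response shut the signal down. In Treg cells these receptors are known to tune survival (IL-7, IL-15), suppressive function (IL-10, IL-27) and the response to inflammation (IL-6, IFN-γ).

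The upstream sequences of the 2 genes with the widest fold range among organs, Ifngr1 and Il7r, both highest in lung, and of Il6ra, which was lowest there, are given first. RefSeq's table for GRCm38.p6 holds a start site for 8 of the 10 genes. Each line below gives the 250 bases before the RefSeq start site, 5′ to 3′ on the strand of the gene, with matches to the motifs searched in capitals.
Ifngr1 (chr10:19591699-19591948, plus strand): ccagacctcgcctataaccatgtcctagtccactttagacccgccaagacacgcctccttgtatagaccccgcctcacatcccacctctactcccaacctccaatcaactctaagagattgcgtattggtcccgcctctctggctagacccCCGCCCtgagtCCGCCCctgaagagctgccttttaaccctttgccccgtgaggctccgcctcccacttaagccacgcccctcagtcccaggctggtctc
Il7r (chr15:9529877-9530126, minus strand): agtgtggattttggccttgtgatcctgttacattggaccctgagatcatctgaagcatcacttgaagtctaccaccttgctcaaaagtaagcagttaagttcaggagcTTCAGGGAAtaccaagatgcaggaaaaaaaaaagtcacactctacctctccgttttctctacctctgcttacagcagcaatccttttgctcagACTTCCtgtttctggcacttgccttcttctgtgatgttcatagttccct
Il6ra (chr3:89913197-89913446, minus strand): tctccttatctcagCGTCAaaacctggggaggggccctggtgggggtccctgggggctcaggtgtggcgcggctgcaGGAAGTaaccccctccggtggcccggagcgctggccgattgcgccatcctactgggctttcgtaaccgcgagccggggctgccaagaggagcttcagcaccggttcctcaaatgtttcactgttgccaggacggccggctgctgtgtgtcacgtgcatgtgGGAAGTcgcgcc
The search covered 5 motifs on both strands: GAS (TTCNNNGAA, the STAT element), a CRE half-site (TGACG), a GC box (GGGCGG), AP-1 (TGANTCA) and an ETS core (GGAAGT). In Ifngr1 the capitals mark 2 GC boxes on the opposite strand, a motif that 32.7% of the 32851 upstream sequences of the table hold. In Il7r they mark a GAS element, TTCAGGGAA, held in some form by 7.02% of all upstream sequences, and an ETS core on the opposite strand, held by 19.7%. In Il6ra they mark a CRE half-site on the opposite strand, held by 17.8%, and 2 ETS cores. The Il7r sequence has a GC content of 44% and 1 CpG, against medians of 52.4% and 6 over the table, while those of Ifngr1 (59.2%, 11 CpG) and Il6ra (65.2%, 18) lie above both medians. A match is a description of letters, not evidence of a bound site. The annotations differ on where Il7r starts: all 250 bases shown lie inside the GENCODE gene, 86 of them in an exon, and the Il6ra stretch lies wholly in an exon of the antisense gene Gm42809.

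The unit throughout is TPM, a length-normalized share of the library's RNA that sums to the same total in each library and keeps no depth. Foxp3 and the other 4 Treg genes checked were above 1 TPM on average in every organ, but their sum was not even. It was 2439 to 2540 TPM in lung, 1674 to 1809 in liver and 1232 to 1249 in lymph node. Bone marrow had 892.6 to 897.1 TPM, spleen 880.2 to 911.8 and blood 468.2 to 474.2. Receptor levels were not scaled to these 5 genes, and the part of this difference in them was not tested. The libraries differed in RNA of other cells: 14 neutrophil and monocyte genes summed to 25070 to 26000 TPM in blood and 47230 to 47550 in bone marrow. The sums were 1613 to 1713 TPM for lung, 639 to 813 for spleen, 193.2 to 389.6 for liver and 34.15 to 84.48 for lymph node, and none of the 14 was at 0 in all 3 libraries of any organ. Lung libraries held 222.5 to 297.4 TPM of 5 lung epithelium genes, against at most 14.2 in any other library, and liver libraries the most of 5 erythroid genes, 10930 to 11970 TPM. Blood libraries held 2993 to 3082 TPM of 7 platelet genes, against at most 85.4 elsewhere, and 451.7 to 515.4 TPM of 6 CD8 and natural killer genes, against at most 77.14. The part of these cells in the receptor levels was not tested. The sum of 20 general T cell genes was lowest in blood (3706 to 3816 TPM) and highest in lymph node (9119 to 9169). The main differences are therefore also given with the libraries scaled to an equal level of these 20 genes, called the T cell scale below. In bulk libraries fewer cells of a type and less RNA per cell cannot be told apart. Between 14314 and 19797 genes were above 0 TPM per library, and replicates varied most in liver, with a median coefficient of variation of 10.5% among genes of at least 100 TPM, against 2.55% in lymph node.

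All 10 receptor genes were expressed in every organ and all 10 differed among the 6 organs by limma's moderated F test on log2(TPM + 1), adjusted over the 16694 genes tested, of which 68.0% passed. Adjusted p-values ran from 4.77e-17 for Ifngr1 to 0.000607 for Il15ra. Lung stood apart in both directions. Il7r, Il4ra, Il21r and Ifngr1 were higher in lung than in each of the 5 other organs, where 5.65% of all tested genes were, and Il6ra, Il27ra and Il15ra were lower in lung than in each of the others, where 6.70% were. On the T cell scale the 4 higher genes stayed higher than in every other organ, and of the lower ones Il6ra and Il15ra did, while Il27ra no longer passed against liver (log2 0.25, limma adjusted p 0.0875). Summed over the 10 genes, the level was 2962 ± 31.2 TPM in lung (SD, n = 3), followed by liver (1335 ± 55.1), bone marrow (1151 ± 11.5), blood (962 ± 2.23), lymph node (932 ± 3.09) and spleen (766 ± 5.85).

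**Figure D1:**
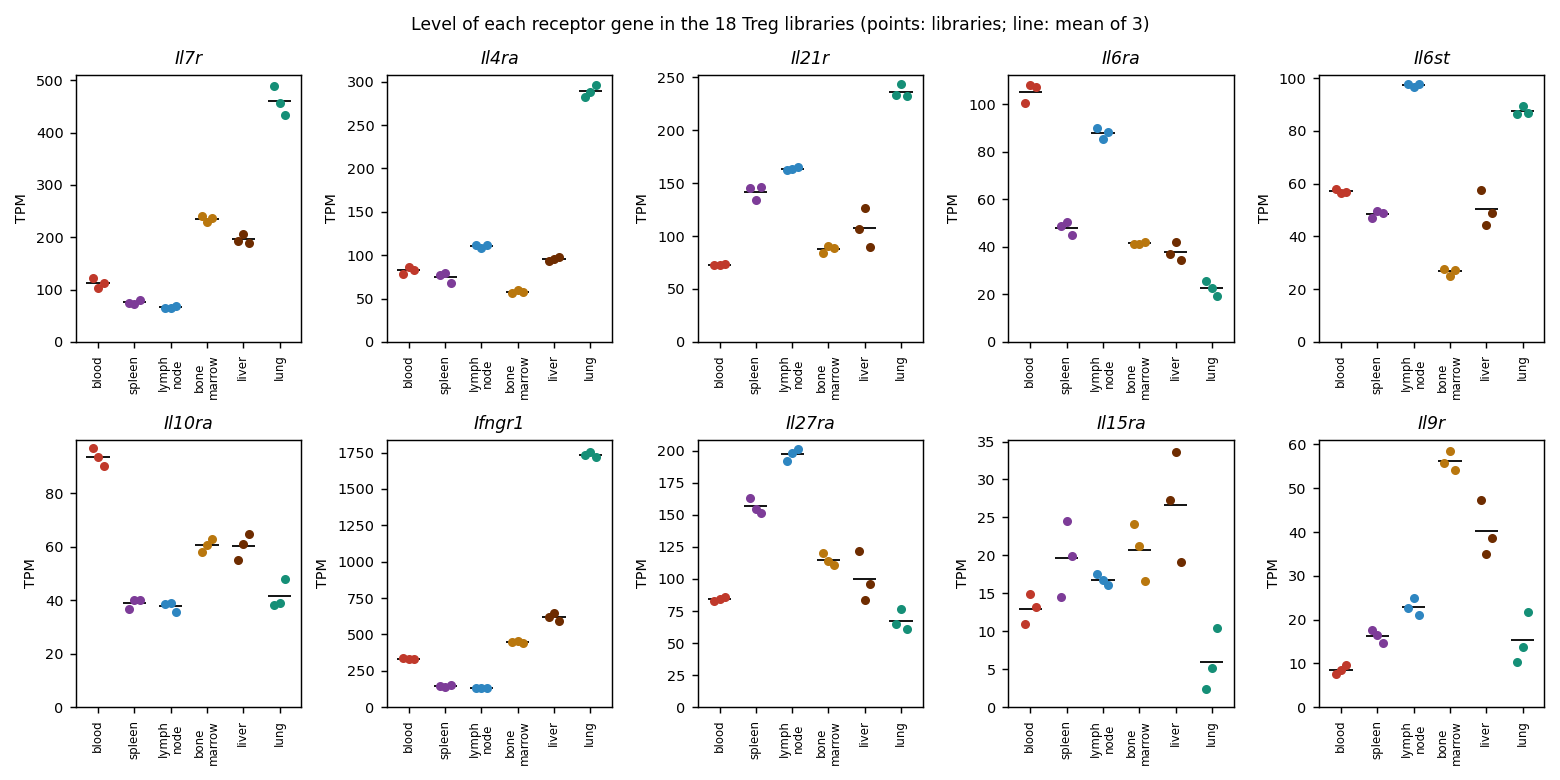
TPM of each of the 10 receptor genes in the 18 libraries, by organ; each point is a library and each line the mean of 3. Ifngr1, Il7r, Il4ra and Il21r are highest in the lung libraries, and Il6ra, Il27ra and Il15ra lowest there.

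The plot of each gene by library shows that the scatter within an organ was small beside the distance between organs for most of the genes. The lung libraries of Il15ra and Il9r scattered most for their level, with coefficients of variation of 68.4% and 38.2%.

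Ifngr1 (ENSMUSG00000020009, chr10:19591949-19610229, plus strand, GRCm38) codes for the ligand-binding chain of the IFN-γ receptor and showed the widest range. The lung libraries measured 1732, 1756 and 1721 TPM, the liver libraries 619, 648 and 594, and the bone marrow libraries 451, 456 and 440.3. Blood measured 336, 331 and 331 TPM, spleen 144, 137 and 155, and lymph node 130.1, 134 and 131. No organ's libraries overlapped those of another, and the mean in lung, 1736 ± 18 TPM (SD, n = 3), was 13.2-fold that of lymph node, 132 ± 1.99. All 15 pairs of organs were called by limma except spleen against lymph node (log2 0.14, SE 0.045, adjusted p 0.0506), a pair that was called without spleen replicate 2 (0.0188) or without any 1 of the 3 liver libraries (0.0337 to 0.0452). The pair was also called on the T cell scale (0.37, 5.82e-05), without the mitochondrial, ribosomal protein and haemoglobin genes (0.22, 0.00481) and with library weights (0.0074). On the T cell scale lung kept the highest value, 1831 ± 24.8, while blood (551 ± 10.1), liver (527 ± 18.9) and bone marrow (497 ± 5.72) came close together: blood minus liver became 0.06 (adjusted p 0.236, from -0.90 in TPM) and blood minus bone marrow 0.15 (0.0162, from -0.43).

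Ifngr1 alone made up 58.6% of the summed TPM of the 10 receptor genes in lung, followed by liver (46.5%), bone marrow (39.1%), blood (34.6%), spleen (19%) and lymph node (14.1%). The order of these shares does not depend on how a library is scaled.

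**Figure D2:**
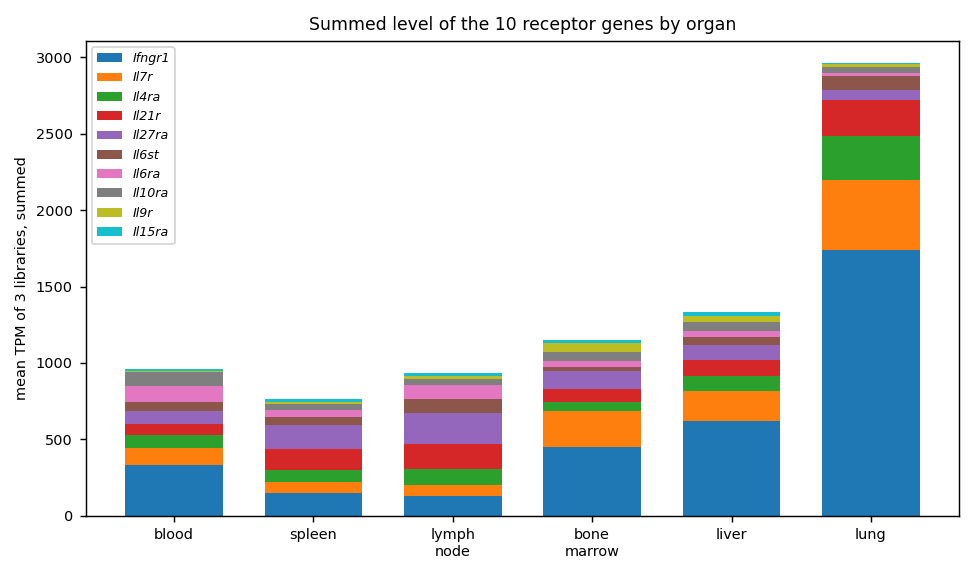
Mean TPM of 3 libraries per organ, stacked over the 10 receptor genes. The lung bar reaches 2962 TPM, of which Ifngr1 is 58.6%, and the spleen bar, the lowest, 766 TPM.

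The stacked bars show that the greater sum in lung lay in 4 genes, Ifngr1, Il7r, Il4ra and Il21r, with the other 6 genes forming a thin layer at the top.

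The second chain of the IFN-γ receptor, Ifngr2, did not follow Ifngr1. It measured 62.4, 49.4 and 45.33 TPM in blood and 42.83, 52.12 and 48.83 in lung, and its means in the other 4 organs lay between 15.4 and 20.8. Blood and lung libraries of Ifngr2 overlapped, and their difference did not pass (log2 0.12, limma adjusted p 0.747), though on the T cell scale blood was higher (0.76, adjusted p 0.0136). Taken within each library, the ratio of Ifngr1 to Ifngr2 was 36.5 ± 3.53 in lung (SD, n = 3), 27.4 ± 1.74 in bone marrow, 9.82 ± 2.24 in spleen, 6.46 ± 0.987 in blood and 6.35 ± 0.477 in lymph node. In liver the 3 libraries gave 35.7, 61 and 22.3.

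Il7r (ENSMUSG00000003882, chr15:9505788-9530176, minus strand), the IL-7 receptor α chain that also takes part in the receptor of TSLP, came closest to Ifngr1 among the 10 genes. The lung libraries measured 489.5, 456 and 433 TPM, bone marrow 239.6, 229 and 237, and liver 193, 207 and 189. Blood measured 122, 104 and 112 TPM, spleen 74.5, 72.9 and 80.6, and lymph node 65.7, 65.6 and 67.9. The 6 organs fell in a row without overlap, from 459.5 ± 28.5 TPM in lung to 66.4 ± 1.27 in lymph node (6.92-fold), and spleen and lymph node were the only neighbours not called (log2 0.19, SE 0.067, limma adjusted p 0.0726). That pair was called on the T cell scale (0.42, adjusted p 0.00112) and with library weights (0.0204). It was also called without the mitochondrial, ribosomal protein and haemoglobin genes (0.28, 0.0153). The call of bone marrow over liver (0.26, adjusted p 0.00676) was lost without the mitochondrial, ribosomal protein and haemoglobin genes (0.13, adjusted p 0.185) and with library weights (0.0654). With the T cell scale, blood (186 ± 17.1) and liver (167 ± 6.02) were no longer told apart (0.15, adjusted p 0.0693). Over the 18 libraries, each gene centred on its own mean, the root mean square difference of log2(TPM + 1) between Il7r and Ifngr1 was 0.401, the smallest among the pairs of the 10 genes.

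Il4ra and Il21r code for the α chains of the IL-4 and IL-21 receptors and lie side by side on mouse chromosome 7, on the plus strand (Il4ra, ENSMUSG00000030748, chr7:125552120-125579474; Il21r, ENSMUSG00000030745, chr7:125603429-125633570), with 23954 bases between them. Il4ra measured 282, 288 and 296 TPM in lung, 112, 109 and 111 in lymph node, 92.9, 95.1 and 97.9 in liver, 78, 86.8 and 82.7 in blood, 76.8, 79.2 and 68.3 in spleen, and 56.5, 59.8 and 57.5 in bone marrow. The lung libraries stood 1.38 log2 units above the next organ, lymph node (limma adjusted p 8.79e-11), and the blood and spleen libraries overlapped (log2 0.14, adjusted p 0.103). The call of liver over blood, with blood lower by -0.21 (adjusted p 0.0175), was lost without blood replicate 1 (-0.17, 0.0833), in a fit of those 2 organs alone (0.083) and with library weights (0.107). That of lymph node over liver (0.21, 0.019) was lost without lymph node replicate 1 (0.062) or 3 (0.0594) and with library weights (0.109). Scaled to the T cell genes, lung stayed highest at 304 ± 7.99, and blood came next at 137 ± 5.71. Blood then lay above liver (0.74, limma adjusted p 3.63e-08) and spleen (1.10, 3.67e-10), and lymph node was level with liver (-0.02, 0.866).

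Il21r was also highest in lung, at 233, 244 and 232 TPM, followed by lymph node (163, 163 and 165) and spleen (146, 134 and 146). Liver measured 106, 126 and 89.5 TPM, bone marrow 83.9, 90.6 and 88.7, and blood 72.75, 72.4 and 73.3, the lowest of the 6 in TPM. Lymph node and spleen libraries did not overlap, but their difference did not pass (spleen minus lymph node -0.21, limma adjusted p 0.157). It was called in a fit of those 2 organs alone (0.0248), with library weights (0.00926) and without liver replicates 2 or 3 (0.0371, 0.0372). The calls at the lower end were weak: blood against bone marrow (-0.27, adjusted p 0.0337) was lost without any 1 of the 3 blood libraries or bone marrow replicates 2 or 3 (0.0732 to 0.107), and bone marrow against liver (-0.27, 0.0267) without liver replicate 2 or bone marrow replicates 1 or 3 (0.0578 to 0.113). On the T cell scale the low value of blood was gone: 121 ± 2.18 in blood, 120 ± 6.02 in spleen and 118 ± 1.12 in lymph node, with lung still highest at 249 ± 3.47.

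The ratio of these neighbours differed among organs. Within a library Il4ra was 1.22 ± 0.0494 times Il21r in lung (SD, n = 3) and 1.13 ± 0.0638 times in blood, but 0.907 ± 0.173 times in liver, 0.676 ± 0.0106 in lymph node, 0.661 ± 0.0122 in bone marrow and 0.529 ± 0.0624 in spleen. Il4ra thus exceeded Il21r in every lung and blood library and stayed below it in every spleen, lymph node and bone marrow library.

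Il13ra1, which pairs with the Il4ra product in the second type of IL-4 receptor and binds IL-13, was found almost wholly in blood: 50.89, 46.48 and 50.88 TPM there, against a mean of 4.263 ± 0.267 for bone marrow, 0.2067 ± 0.179 for liver, 3.487 ± 0.865 for lung, 1.26 ± 0.434 for spleen and 0.4833 ± 0.0115 for lymph node (SD, n = 3). It was higher in blood than in each other organ in TPM and on the T cell scale. Blood also held the highest level of Csf3r, the G-CSF receptor of neutrophils, and the part of other cells in the Il13ra1 level was not tested.

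Il2rg, the γ chain that the products of Il7r, Il4ra, Il21r, Il15ra and Il9r work with, varied little in TPM outside blood. Its means there lay between 590.8 and 670.2 TPM, and blood had 376 ± 20.6 (SD, n = 3). Blood was lower than each other organ in TPM (log2 -0.83 against lung, limma adjusted p 6.42e-07), but on the T cell scale the difference was -0.18 from lung (adjusted p 0.0933), -0.07 from bone marrow (0.577) and 0.18 from liver (0.0986), and blood was called higher than spleen (0.28, 0.0136) and lymph node (0.37, 0.0023). Outside blood, that scale put Il2rg higher in lung than in lymph node (lymph node minus lung -0.55, limma adjusted p 0.000136) and spleen (spleen minus lung -0.47, 0.000649). Lung and bone marrow were not called apart there (bone marrow minus lung -0.11, 0.341). The liver libraries of Il2rg spread from 584 to 793 TPM. Il7r over Il2rg, taken within each library, rose from 0.0993 ± 0.00343 in lymph node to 0.686 ± 0.0453 in lung.

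Il15ra (ENSMUSG00000023206, chr2:11705290-11734317, plus strand), the chain that presents IL-15 to cells bearing Il2rb and Il2rg, was the least precisely measured. The lung libraries held 2.38, 5.13 and 10.42 TPM, a coefficient of variation of 68.4%, and the other organs had means between 13 and 26.7 TPM. No lung library reached the lowest library of another organ, 10.9 TPM in blood. All 5 pairs with lung were called (blood minus lung 1.17, SE 0.335, limma adjusted p 0.00995), blood against liver was called (-0.96, 0.0331), and the other 9 of 15 pairs were not. Blood against lung was lost without lung replicate 1 (0.73, adjusted p 0.0526) and in a fit of those 2 organs alone (0.0882), and on the T cell scale it was 1.79 (0.000244). Blood against liver was lost without liver replicates 1 or 2 or blood replicates 1 or 3 (0.0697 to 0.113), with library weights (0.0673) and with no filter (0.0546), and on the T cell scale it was -0.05 (0.921). Beside Il2rb, the IL-15 receptor chain that signals, Il15ra was 0.114 ± 0.0326 times as abundant in liver and 0.0145 ± 0.0101 times in lung (SD, n = 3). Il2rb had its highest mean in lung, 415 ± 6.96 TPM. In TPM it was not called apart from lymph node (384.9 ± 6.9; lymph node minus lung -0.11, limma adjusted p 0.0657). On the T cell scale lung was higher (-0.66, 3.66e-08).

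Il9r (ENSMUSG00000020279, chr11:32187541-32200279, minus strand), the IL-9 receptor, was highest in bone marrow, with 55.75, 58.5 and 54.2 TPM, and in liver, with 47.3, 35.1 and 38.7. Lymph node held 22.6, 24.9 and 21.1 TPM, spleen 17.5, 16.6 and 14.6, lung 10.33, 13.8 and 21.7, and blood 7.66, 8.45 and 9.54. Blood was below every other library of the series and was called lower than each of the 5 organs, where 3.44% of all tested genes were. That held on the T cell scale only against bone marrow (-2.06) and liver (-1.21), and bone marrow was higher than each other organ. Bone marrow and liver did not overlap in TPM but were not called apart (log2 0.48, SE 0.194, limma adjusted p 0.0701). They were called apart when liver replicate 1, lung replicate 1 or lung replicate 3 was left out (0.0138 to 0.0403). A fit of those 2 organs alone (0.0464) and the T cell scale (0.85, 0.00212) called them apart too. The call of lymph node over lung (0.61, adjusted p 0.0193) was lost without lymph node replicate 2 or lung replicates 1 or 2 (0.0539 to 0.101).

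The 3 genes of the IL-6 family moved apart. Il6ra (ENSMUSG00000027947, chr3:89864059-89913196, minus strand) codes for the IL-6 binding chain and ran opposite to Il7r, with a correlation of log2 levels of -0.796 over the 18 libraries, which share organs and are given here as a description. Blood measured 100.3, 108 and 107 TPM, lymph node 90.2, 85.2 and 88.5, and spleen 48.85, 50.5 and 45. Bone marrow measured 41.1, 41.1 and 42.05 TPM, liver 37, 42.1 and 34.3, and lung 25.8, 22.7 and 19.1. Blood and lymph node did not overlap, and their difference did not pass in TPM (log2 0.26, limma adjusted p 0.059). It did pass on the T cell scale (1.44, 4.02e-09), without liver replicates 2 or 3 (0.0392, 0.0453), and without lung replicates 1 or 3 (0.031, 0.0252). It also passed in a fit of those 2 organs alone (0.00321) and with library weights (0.000237). Spleen over liver (0.34, adjusted p 0.0165) was lost without spleen replicate 2 (0.0614) or liver replicate 3 (0.0595), and neither spleen nor liver was called apart from bone marrow. Other settings did call them apart. Bone marrow lay above liver on the T cell scale (0.50, 0.000699). Spleen lay above bone marrow with library weights (0.21, 0.0303) and without the mitochondrial, ribosomal protein and haemoglobin genes (0.42, 0.00877).

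Il6st (ENSMUSG00000021756, chr13:112464070-112510086, plus strand), the signal-transducing chain gp130, was highest in lymph node (97.7, 96.5 and 97.7 TPM) and lung (86.55, 89.6 and 86.6), which were not called apart (log2 0.15, limma adjusted p 0.168). Blood had 57.05 ± 0.691 TPM (SD, n = 3), liver 50.19 ± 6.78, spleen 48.44 ± 1.46 and bone marrow 26.76 ± 1.38. Bone marrow was below every other organ, where 0.449% of all tested genes were, in TPM and on the T cell scale. The call of blood over spleen (0.23, adjusted p 0.042) failed in 14 of the 25 alternatives, the replicate block (0.0518) among them, and without any 1 of the blood, spleen or lymph node libraries or bone marrow replicates 1 or 3 (0.0508 to 0.119). With the T cell scale, blood (94.4 ± 2.27) and lung (92.3 ± 0.656) came out highest.

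Il27ra (ENSMUSG00000005465, chr8:84030294-84042589, minus strand), the chain that joins gp130 in the IL-27 receptor, was highest in lymph node (192, 198 and 201 TPM) and spleen (163, 155 and 151). Bone marrow measured 120, 114 and 111 TPM, liver 122, 83.25 and 96.1, blood 83.2, 84.6 and 85.8, and lung 64.55, 76.6 and 61.1. Lymph node and spleen libraries did not overlap, but the difference did not pass (spleen minus lymph node -0.33, limma adjusted p 0.0526). It passed when liver replicates 1 or 2 or lung replicates 2 or 3 were left out (0.0087 to 0.0451). A fit of those 2 organs alone (0.00443) and library weights (0.000962) called it too. The call of blood over lung (0.33, adjusted p 0.0224) was lost without lung replicates 1 or 3 or blood replicates 2 or 3 (0.0537 to 0.0902). On the T cell scale lymph node (142 ± 3.9), blood (140 ± 2.55), spleen (132 ± 4.83) and bone marrow (127 ± 5.12) lay together, above liver (85.5 ± 17.6) and lung (71 ± 7.38), which were not called apart there (0.25, adjusted p 0.0875).

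Ratios within a library do not depend on its scaling. Il6ra was 1.85 ± 0.0961 times as abundant as Il6st in blood (SD, n = 3), 1.55 ± 0.076 times in bone marrow, 0.994 ± 0.0648 in spleen, 0.904 ± 0.0199 in lymph node, 0.765 ± 0.163 in liver and 0.257 ± 0.0388 in lung. Il27ra over Il6st ran from 4.29 ± 0.241 in bone marrow and 3.23 ± 0.223 in spleen to 0.769 ± 0.0775 in lung, the only organ in which both partners of gp130 were less abundant than gp130 itself in every library. Ifngr1 over Il27ra was 26 ± 2.72 in lung, 6.35 ± 1.35 in liver, 3.94 ± 0.0885 in blood, 3.92 ± 0.134 in bone marrow, 0.93 ± 0.0819 in spleen and 0.668 ± 0.0146 in lymph node, and Il7r over Il6ra was 20.6 ± 1.87 in lung and 0.755 ± 0.0229 in lymph node.

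**Figure D3:**
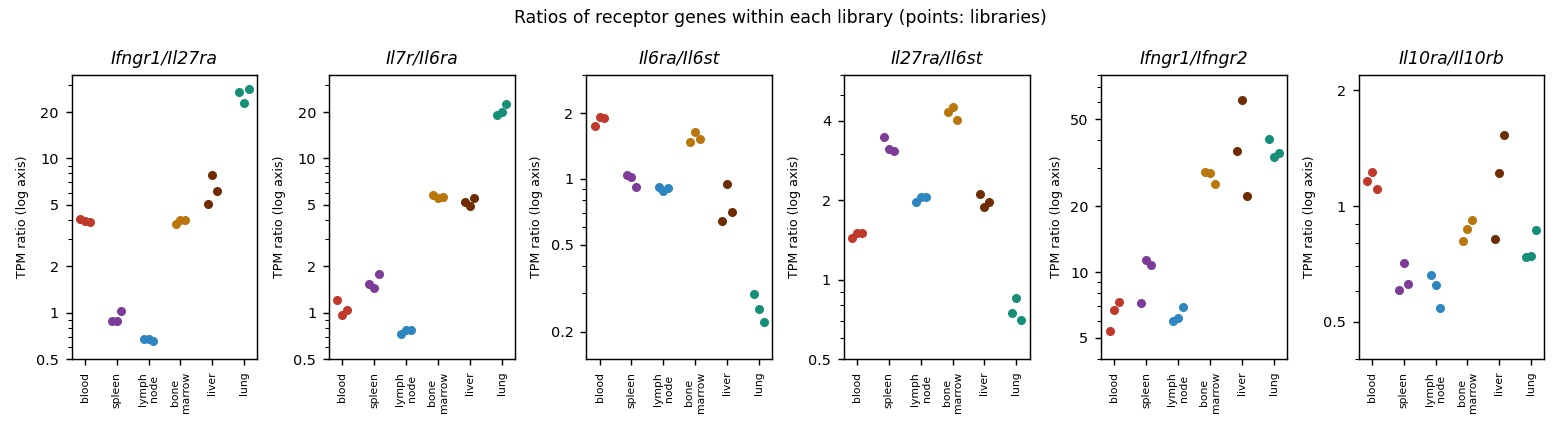
TPM ratios of receptor genes within each library, by organ, on log axes; each point is a library. Ifngr1 over Il27ra and Il7r over Il6ra are highest in the lung libraries, and Il6ra over Il6st is highest in blood and lowest in lung.

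The plot of ratios shows the lung libraries at an end of 4 of the 6 panels, apart from the other organs in each of the 4, and the widest scatter among the liver libraries for Ifngr1 over Ifngr2.

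Il10ra (ENSMUSG00000032089, chr9:45253837-45269149, minus strand), the IL-10 binding chain, was highest in blood, at 96.9, 93.6 and 90.03 TPM. Bone marrow measured 58, 60.8 and 63 TPM, liver 55.2, 61.05 and 64.8, lung 38.3, 38.95 and 47.9, spleen 36.7, 40.2 and 40.1, and lymph node 38.65, 38.9 and 35.8. Blood was called higher than each of the 5 organs, where 7.49% of all tested genes were, with log2 differences of 1.24 against spleen, 1.29 against lymph node, 0.62 against bone marrow, 0.63 against liver and 1.15 against lung, and on the T cell scale as well. In TPM bone marrow and liver were not called apart, nor were any of lung, spleen and lymph node. On the T cell scale bone marrow was called above liver (0.38, limma adjusted p 0.00348). There lung was also called above spleen (spleen minus lung -0.40, 0.00303) and lymph node (lymph node minus lung -0.67, 3.01e-05). Its partner Il10rb varied less, from 53.2 ± 1.72 TPM in lung to 80.4 ± 3.65 in blood (SD, n = 3). Il10 itself was at 0.26 ± 0.173 TPM in blood and reached 35.69 ± 5.47 in lung.

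The 2 receptor genes with their highest level in blood were set beside markers of other cells. Csf3r measured 698, 771 and 721 TPM in blood, 148, 143 and 145 in bone marrow, and 17.65 ± 6.7 in lung (SD, n = 3), the next organ. S100a9, an abundant neutrophil gene, was at 9048 ± 305 TPM in blood and at 20700 ± 20.4 in bone marrow. Lymph node had the least S100a9 (19.8 ± 13.2). Il6ra was lower in bone marrow (41.4 ± 0.537) than in lymph node (87.95 ± 2.52). Il10ra went the other way, with 60.62 ± 2.51 TPM in bone marrow and its lowest mean, 37.78 ± 1.76, in lymph node. Its level in liver (60.36 ± 4.85) was like that in bone marrow. The 2 markers peaked in different organs, S100a9 in bone marrow and Csf3r in blood, the organ with the highest means of Il6ra and Il10ra. The part of neutrophil and monocyte RNA in the blood levels of Il6ra, Il10ra and Ifngr2 was not tested.

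**Figure D4:**
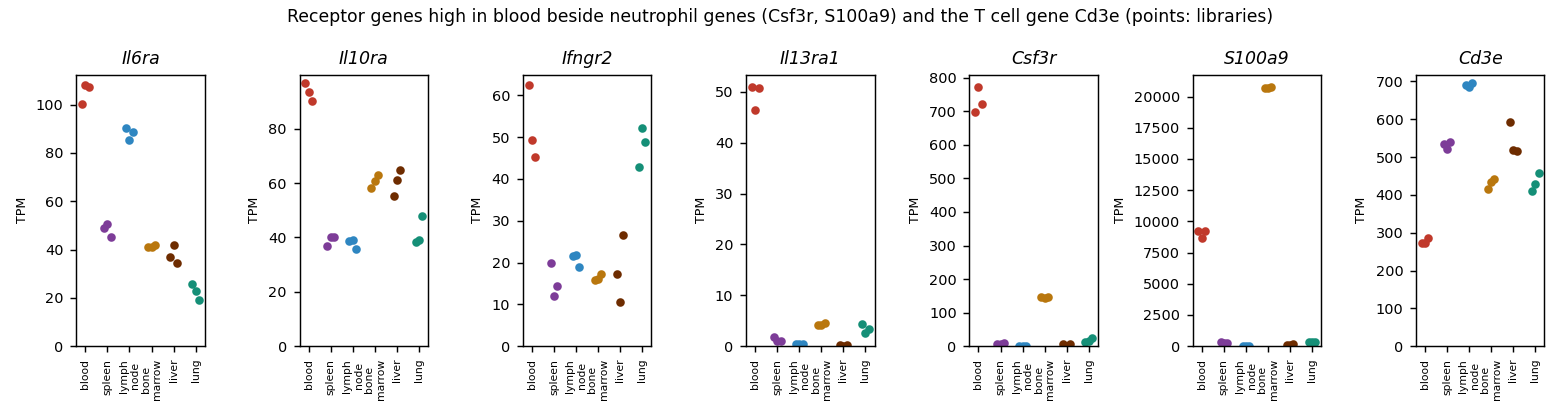
TPM by organ, each point a library, for Il6ra, Il10ra, Ifngr2 and Il13ra1 beside the neutrophil genes Csf3r and S100a9 and the T cell gene Cd3e. Csf3r and Il13ra1 are highest in blood, S100a9 in bone marrow, and Cd3e is lowest in blood.

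The panels of receptor and marker genes show Il6ra high in lymph node too, where Csf3r was at 0.22 ± 0.114 TPM (SD, n = 3). Il10ra had its lowest mean there, 37.78 ± 1.76 TPM.

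Blood against each organ is the comparison the series names. Against spleen 8 of the 10 receptor genes were called, 5 higher and 3 lower in blood, where limma called 35.4% of all genes (20.1% higher, 15.3% lower). Against lymph node 8 were called, 3 higher and 5 lower, with 37.4% of all genes called (16.4% and 21.0%). The bone marrow comparison called 9, 4 higher and 5 lower, with 31.8% of all genes called (13.0% and 18.8%). The liver comparison called 8, 2 higher and 6 lower, with 39.4% (23.3% and 16.1%), and the lung comparison all 10, 4 higher and 6 lower, with 43.7% (26.4% and 17.3%). In each comparison the genes called made up a larger share of the 10 than of all genes. Apart from Il15ra (0.335), the standard errors of the 10 lay between 0.045 and 0.194. The median over all genes was 0.254. Smaller errors bring more calls at the same difference, and the list was drawn up with earlier results known. The larger share is therefore not a result about cytokine receptors. The median log2 differences of the 10 genes, blood minus organ, were 0.19, -0.39, -0.35, -0.38 and -0.66 in this order, beside 0, -0.15, -0.11, 0.07 and 0.12 over all genes tested. These 5 comparisons share the blood libraries. Without lung replicate 1 the calls of Il6ra and Il10ra as higher in blood than in lung were kept, and those of Il27ra (0.30, adjusted p 0.0648) and Il15ra (0.73, 0.0526) were lost.

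Of the 50 differences between blood and an organ, 33 kept their direction on the T cell scale and 17 changed it, on a scale that moves blood up for all genes. Scaled to the T cell genes, the median of blood minus organ over all genes was 0.88 (liver), 0.80 (lymph node), 0.79 (spleen), 0.67 (lung) and 0.37 (bone marrow) in log2 units. The share of all calls that were higher in blood went from 59.1% to 93.4% against liver, from 43.9% to 97.4% against lymph node and from 56.9% to 96.0% against spleen. It went from 60.5% to 87.6% against lung and from 41.0% to 83.1% against bone marrow. Il6ra and Il10ra were higher in blood on this scale in all 5 comparisons, with Il6ra at 2.07 above spleen, where all genes had a median of 0.79. Il7r, Il4ra, Il21r and Ifngr1 remained lower in blood than in lung, and Il9r lower than in bone marrow and liver. Il21r, Il27ra and Il9r, lower in blood than in spleen by -0.95, -0.88 and -0.85 in TPM, were at 0.01, 0.08 and 0.04 on the T cell scale, beside the median of 0.79 over all genes.

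**Figure D5:**
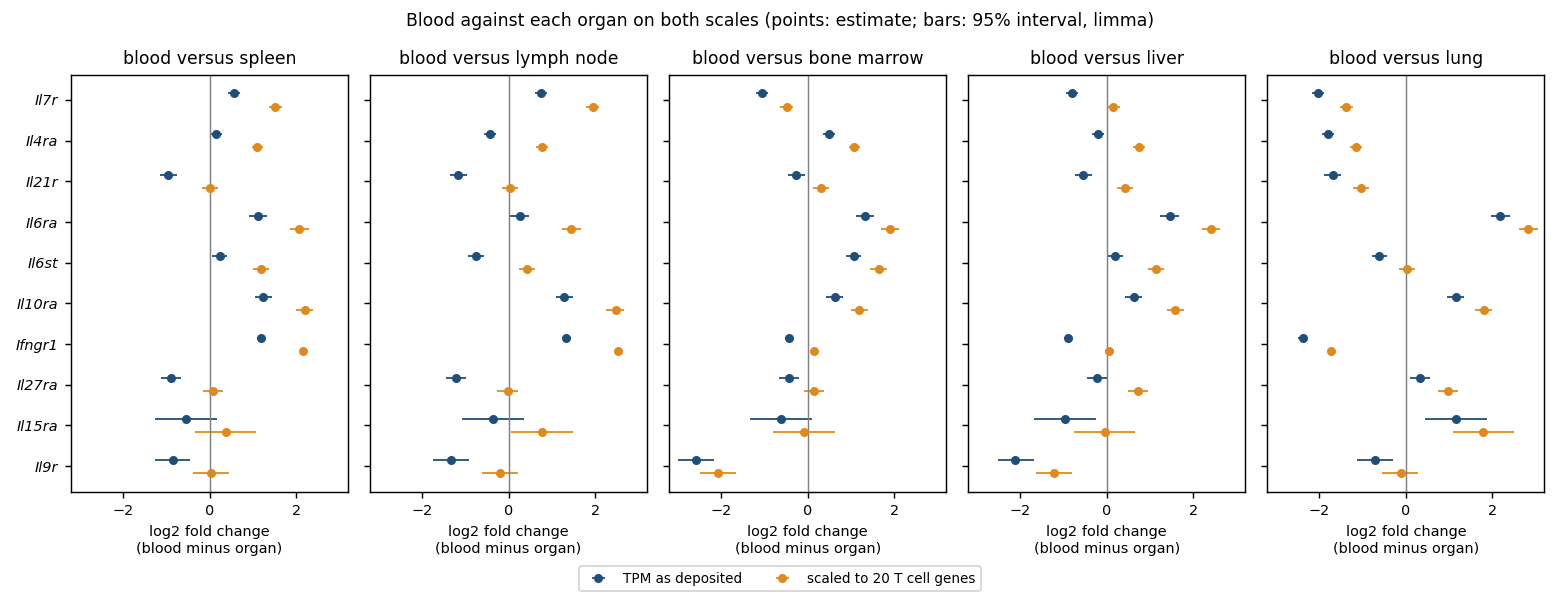
Log2 differences, blood minus each organ, of the 10 receptor genes, with 95% intervals from limma, in TPM as deposited (blue) and scaled to 20 T cell genes (orange). The orange points lie to the right of the blue ones in each panel, and Ifngr1, Il7r, Il4ra and Il21r stay below 0 against lung on both scales.

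The plot of both scales shows intervals much narrower than the shift between the scales for Ifngr1, Il7r and Il4ra, and the widest intervals for Il15ra.

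Between the 5 organs other than blood, 78 of the 100 tests of a receptor gene in a pair of organs were called, where 31.9% were over all genes. The same limits apply to this share: smaller standard errors than most genes, and a list chosen with earlier results known. All 10 genes were called in bone marrow against lung and in liver against lung (43.5% and 34.9% of all genes), and 3 in spleen against lymph node (14.3%). In liver against lung, a fit of those 2 organs alone lost Il10ra (adjusted p 0.0569), Il27ra (0.131), Il15ra (0.0748) and Il9r (0.0536), and the T cell scale lost Il10ra (0.0756) and Il27ra (0.0875). The 3 genes called between spleen and lymph node, Il4ra, Il6ra and Il6st, were all lower in spleen, where 9.87% of all genes were. Counting all 15 pairs, Il7r, Il4ra, Il21r and Ifngr1 were called in 14, Il6ra, Il6st, Il27ra and Il9r in 12, Il10ra in 11 and Il15ra in 6.

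Of the other genes of these pathways, the JAK and STAT list had all 11 genes passing the F test, which 68.0% of all tested genes passed. In blood against lung 6 of the 11 were lower and 4 higher, beside 17.3% and 26.4% of all genes. Jak2, the kinase of the IFN-γ receptor's second chain, was at 410.7, 386.5 and 335 TPM in lung and had means of 55.7 to 102.8 elsewhere. Stat5a, which carries IL-2, IL-7 and IL-15 signals, was at 230.4 ± 11.2 TPM in lung (SD, n = 3) and at most 80.6 ± 9.49 elsewhere, and Stat4, which carries IL-12 signals, at 273.4 ± 4.7 and at most 93.4 ± 1.6. Jak2, Stat5a and Stat4 were higher in lung than in every other organ on both scales. Stat3, chosen after its values were seen because it carries the signals of IL-6, was highest in lung (437.8 ± 80.8 TPM; SD, n = 3).

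In the feedback list 11 of 12 genes passed the F test (68.0% of all genes did), and Socs6 did not (limma adjusted p 0.0687). Socs3, which binds gp130 and blocks IL-6 signals, was at 557, 592 and 626 TPM in lung and at 64.35 to 131.7 on average elsewhere. Ptpn6, a phosphatase that dampens JAK signals, ran the other way, with 374 ± 5.78 TPM in blood and 45.46 ± 18.8 in lung (SD, n = 3). Cish, a STAT5 target that limits IL-2 signals, was at 17.19 ± 0.668 TPM in blood and at 62.1 to 107.3 on average elsewhere. Socs3 was higher in lung, Ptpn6 lower in lung, and Cish lower in blood than in each other organ on both scales.

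All 6 partner chains passed the F test (68.0% of all genes), led in range by Il13ra1, Ifngr2 and Il2rb. Of 18 other cytokine receptors, 15 could be tested and 11 passed, a share near the 68.0% of all genes. The widest were the myeloid receptors Csf3r, Csf2rb (78.07 ± 0.59 TPM in blood, 24.3 ± 1.36 in bone marrow; SD, n = 3) and Csf2ra (311.9 ± 17.4 and 123.3 ± 11.4), each higher in blood than in every other organ on both scales. Of 15 ligands, 11 could be tested and all 11 passed, beside the same 68.0%. Ifng was highest in liver, at 81.68, 81.85 and 68.02 TPM, and lowest in lymph node, at 2.583 ± 0.609, the organ with the least Ifngr1. Lung, with the most Ifngr1, held less Ifng than liver (liver minus lung 3.02, limma adjusted p 2.06e-06). It was not called apart from spleen (0.699) or blood (0.218). Il15 was at 27.24 ± 5.79 TPM in blood and at most 7.667 ± 2.24 elsewhere, and Il10 was lowest in blood.

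The genes whose pattern over the 18 libraries came closest to each receptor gene were found by the root mean square difference of centred log2(TPM + 1) values, among 10520 candidates. For Ifngr1 they were Emb (0.271), with 1062 TPM in lung and 88.82 in lymph node, and Ptp4a1 (ENSMUSG00000117310, 0.319). For Il7r they were Pde2a (0.223) and the histone gene H3f3b (0.315). Il4ra was nearest to Prickle1 (0.198) and to Stat5b (0.226), whose mean was 271.5 TPM in lung and 78 in blood, and Il21r to Il2rb (0.178) and Bzw2 (0.192).

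Il6ra was nearest to Slfn5 (0.202; 88.72 TPM in blood, 22.19 in lung) and Wdr13 (0.287), Il6st to Lef1 (0.232), a transcription factor of resting T cells, and Trib2 (0.245), and Il27ra to Lbh (0.171) and Tcof1 (0.179). For Il10ra the nearest were Pnpla2 (0.159) and Tmem71 (0.194), for Il15ra Plcb3 (0.317) and Ticam1 (0.356), and for Il9r Muc3a (0.286) and the proliferation marker Mki67 (0.315), which had 80.95 TPM in bone marrow and 6.583 in blood. The distances measure likeness only, and the libraries share organs.

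Some of the genes overlap others in the annotation of GENCODE M21. Il4ra shares 571 exonic bases with the antisense gene Gm44876 (at most 3.7 TPM), Il6ra 242 with Gm42809 (at most 9.48 TPM), and Il27ra 2 with Palm3 on the opposite strand (at most 31.59 TPM). Whether strand was used in counting is not given in the sources used here, so reads of such pairs may not be told apart.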

How the data were processed

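Poly(A) RNA of 18 Treg libraries was analysed. Per the submitters' processing notes, the authors used STAR and RSEM with the genome build mm10; versions, annotation and strand setting are not given in the sources used here. The deposited TPM values, per the file headers, were used as they stand. Symbols came from GENCODE M21, which matched 55141 of 55487 IDs. R 4.3.3 and limma 3.58.1 (eBayes, trend and robust) were run on log2(TPM + 1), so fold changes understate those of low genes. The 16694 genes that averaged 1 TPM or more in some organ entered 1 model with a mean per organ, no covariate and 15 contrasts; p-values were adjusted by Benjamini-Hochberg over all genes and called under 0.05. The test was checked on simulated data.

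The named genes are the 10 receptor genes, the 2 genes nearest to each by pattern (averaging 5 TPM or more in some organ), up to 3 genes of widest range per pathway list, and partner or feedback genes. The members and lists were chosen with earlier results of these data known. Alternatives were a pseudocount of 0.1, no filter, scaling to 20 T cell genes, leaving out mitochondrial, ribosomal protein and haemoglobin genes, fitting only the organs compared, library weights, a replicate block and leaving out each library. One gene of the pathway lists is not reported here.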

Additional observations from a re-analysis of the deposited data

How the results depend on the processing

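The 10 receptor genes passed the F test under each setting tried, and the 50 passing pathway genes numbered 47 to 53 when 1 library was left out. Scaling to the 20 T cell genes left 0 genes lower in blood than in spleen (3 in TPM), gave 6 higher and 0 lower against lymph node (3 and 5), 2 lower against bone marrow (5), and 6 higher and 1 lower against liver (2 and 6). By its construction this scale raises blood, which had the least T cell RNA. It turned the following log2 differences, first organ minus second. Blood minus spleen became 0.01 for Il21r, 0.08 for Il27ra, 0.37 for Il15ra and 0.04 for Il9r. Blood minus lymph node became 0.77 for Il4ra, 0.03 for Il21r, 0.42 for Il6st and 0.77 for Il15ra. Blood minus bone marrow became 0.31 for Il21r, 0.15 for Ifngr1 and 0.14 for Il27ra, and blood minus liver 0.15 for Il7r, 0.74 for Il4ra, 0.41 for Il21r, 0.06 for Ifngr1 and 0.72 for Il27ra. Blood minus lung became 0.03 for Il6st. Among the other organs, spleen minus lymph node became 0.02 for Il21r, spleen minus bone marrow -0.02 for Il4ra and -0.17 for Il6ra, spleen minus lung -0.16 for Il9r, lymph node minus liver -0.02 for Il4ra, lymph node minus lung -0.39 for Il6st, and bone marrow minus liver 0.10 for Il21r and 0.03 for Il15ra.

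Leaving out the mitochondrial, ribosomal protein and haemoglobin genes turned 4 values that were not called, Il4ra in blood minus spleen (-0.01), Il15ra in spleen minus bone marrow (0.12), Il6st in spleen minus liver (0.03) and Il10ra in bone marrow minus liver (-0.12); the cause was not tested. Leaving out 1 library turned 5 values that were not called. Their ranges were -0.25 to 0.11 for Il15ra in spleen minus bone marrow, -0.13 to 0.06 for Il6st in spleen minus liver, -0.05 to 0.06 for Il10ra in bone marrow minus liver, -0.15 to 0.01 for Il10ra in spleen minus lung and -0.09 to 0.41 for Il9r in spleen minus lung. The count of genes higher in blood than in lung ranged from 2 to 4, with 2 without lung replicate 1. Fits of only the 2 organs compared left 131 of the 150 differences on the same side of the threshold, and library weights 137. A pseudocount of 0.1 changed none of the 150 differences in direction or call.

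Deviations of the 45 same-numbered pairs correlated between -0.034 and 0.03 (median 0.007), and those of the 90 other pairs between -0.035 and 0.04 (median -0.002). Of the 18 libraries, 9 correlated best with their own number. These values show no clear pairing by replicate number. They cannot tell if same-numbered libraries share animals, which the labels do not give. With a replicate block 149 of 150 calls stayed, and Il6st in blood against spleen went from an adjusted p of 0.042 to 0.0518 (limma), one of several settings that lost this call. TPM keeps no depth, so no counting error can be given, and 3 libraries per organ limit the precision.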
